A study of Mus musculus with 6 samples.

Results

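The sebaceous gland lipid genes are 10 genes of lipid synthesis, lipid storage and hormone reception in the sebaceous gland: Scd1, Scd3, Elovl3, Plin2, Plin5, Cidea, Awat1, Awat2, Dgat2l6 and Mc5r. They were chosen by name, and each was found through the RefSeq accession of its array probes. They make up 10 of the 21364 genes named on the array and 13 of its 55681 probes, with 3 probes for Scd3, 2 for Mc5r and 1 for each of the others. The transcripts were measured in epidermis lifted off mouse tail skin with EDTA, 1 array per sample, and the comparison asks how aged tail epidermis differs from young. The aged group is 3 samples of wild-type C57BL/6 mice, replicate 1 of 22 months and replicates 2 and 3 of 25 months. The young group is 3 samples of wild-type C57BL/6 mice of 8 weeks. No transgene or drug is named for either group. Sex is not given in the labels, nor whether the samples of a group are separate animals. The p-values therefore reflect the spread between these samples only.

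Sebaceous glands open into the hair follicle. Their cells, the sebocytes, fill with lipid droplets as they mature and then burst, releasing sebum, which in mice is rich in wax esters and sterol esters. Desaturases and elongases shape the fatty acids, acyltransferases join them to alcohols or glycerides, droplet proteins coat and enlarge the store, and melanocortin peptides act on the gland through Mc5r.

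Values are log2 signal relative to the array's 75th percentile, so 0 is that percentile, and a level of 1 probe cannot be set against that of another. That percentile was 230.2 to 300.3 signal units, and each array detected 50.04% to 54.4% of its probes above background. No saturation was recorded, and with 3 arrays per group precision is limited by their number. The tissue label was set against markers of its cell types. All 8 keratinocyte markers were tested, and their summed linear signal was 2415, 2385 and 2531 on the aged arrays and 2487, 2377 and 2440 on the young arrays. Of 10 sebaceous lineage markers 9 were tested, and only Muc1 was well above background on 0 arrays. Of 11 adipocyte markers 5 were tested. Adipoq, Lep, Pck1 and Slc7a10 were well above background on 0 arrays, and Fabp4, Adrb3 and Lipe on all 6. Of 8 markers of fibroblasts and dermis 5 were tested. The means of Sparc were 6.49 in aged and 6.01 in young samples, and those of Dcn 2.48 and 2.27. Those of the collagen genes were lower in aged samples: Col1a1 -4.48 and -1.53, Col1a2 -2.45 and -0.37, and Col3a1 -4.80 and -2.39.

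Promoter sequences are shown for the 6 of the 10 genes that RefSeq's GRCm38.p6 table held. Of these, 5 are among the genes with a shared order across arrays described below, and Awat2 is the gene whose groups did not overlap. Each runs 5′ to 3′ in the direction of the gene, covering 250 bases before and 50 after an annotated start. Capitals mark matches on either strand to AGGTCA, the core element bound by nuclear receptors such as PPARs, or to CCAAT, a common promoter element. The table holds a further start for Plin5 and for Awat2, which is not printed.
Plin2, chr4:86670010-86670309, minus strand: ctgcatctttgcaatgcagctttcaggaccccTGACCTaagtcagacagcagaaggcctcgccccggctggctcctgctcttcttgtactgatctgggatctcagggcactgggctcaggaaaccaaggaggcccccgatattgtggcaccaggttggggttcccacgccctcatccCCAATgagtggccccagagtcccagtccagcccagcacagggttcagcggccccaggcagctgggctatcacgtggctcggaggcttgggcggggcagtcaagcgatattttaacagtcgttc
Plin5, chr17:56117499-56117798, minus strand: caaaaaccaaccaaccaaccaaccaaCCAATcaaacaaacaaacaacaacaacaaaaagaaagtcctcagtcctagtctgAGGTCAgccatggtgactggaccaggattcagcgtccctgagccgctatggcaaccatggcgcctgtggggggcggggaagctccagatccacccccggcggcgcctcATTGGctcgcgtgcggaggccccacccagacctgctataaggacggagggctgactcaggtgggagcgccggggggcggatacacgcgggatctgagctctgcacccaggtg
Scd3, chr19:44203038-44203337, plus strand: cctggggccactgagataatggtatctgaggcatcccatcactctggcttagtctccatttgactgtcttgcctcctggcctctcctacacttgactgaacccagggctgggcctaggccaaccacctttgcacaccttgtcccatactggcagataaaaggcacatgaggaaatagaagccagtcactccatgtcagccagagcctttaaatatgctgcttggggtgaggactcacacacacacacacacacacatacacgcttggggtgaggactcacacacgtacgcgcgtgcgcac
Awat2, chrX:100442668-100442967, minus strand: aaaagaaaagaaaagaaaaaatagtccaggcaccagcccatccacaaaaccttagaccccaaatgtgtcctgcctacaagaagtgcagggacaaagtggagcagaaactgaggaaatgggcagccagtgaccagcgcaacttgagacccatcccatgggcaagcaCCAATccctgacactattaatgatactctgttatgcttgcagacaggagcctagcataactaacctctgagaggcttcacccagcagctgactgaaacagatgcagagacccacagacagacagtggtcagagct
Dgat2l6, chrX:100524588-100524887, plus strand: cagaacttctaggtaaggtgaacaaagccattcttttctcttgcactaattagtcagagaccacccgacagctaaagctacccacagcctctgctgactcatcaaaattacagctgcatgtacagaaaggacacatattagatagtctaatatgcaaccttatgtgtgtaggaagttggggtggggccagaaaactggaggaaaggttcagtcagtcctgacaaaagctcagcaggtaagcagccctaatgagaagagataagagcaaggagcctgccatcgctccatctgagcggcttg
Awat1, chrX:100571997-100572296, plus strand: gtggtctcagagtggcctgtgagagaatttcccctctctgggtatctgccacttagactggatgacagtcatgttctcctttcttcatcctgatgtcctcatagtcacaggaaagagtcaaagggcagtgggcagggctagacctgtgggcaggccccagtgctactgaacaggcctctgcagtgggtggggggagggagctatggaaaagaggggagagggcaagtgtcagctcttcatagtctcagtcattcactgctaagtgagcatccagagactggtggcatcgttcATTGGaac
AGGTCA was found in 3 of the 8 promoters of these 6 genes, 1 for Plin2 and 2 for Plin5, against 16.3% of the 32851 promoters in the table. In Plin2 it lay on the opposite strand at position -218 relative to the start, and in the printed Plin5 promoter at position -170. CCAAT was found in 5 of the 8 promoters, against 37.4% of the table. A direct repeat of AGGTCA with any 1 base between (0.0396% of the table), the sterol element form TCACNCCAC (1.24%) and TATAAA (13.6%) were each found in 0 of the 8. These motifs overlap only where the repeat contains AGGTCA. A match describes letters in a window and is not a binding site.

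None of the 10 genes passed the threshold between aged and young epidermis (limma with Benjamini-Hochberg adjustment over all features, 0.05), where 11 of 14141 tested genes did, which is 0.0778% (0.0424% higher and 0.0354% lower in aged). With the replicate number as a block the count over all genes was 0, with 2713 genes at an unadjusted p under 0.05, and the count of the 10 genes stayed 0. At an unadjusted p under 0.05 there was 1 of the 10, Awat2, against 17.7% of all tested genes. The difference was positive for 5 genes and negative for 5, against 63.6% positive over all genes, and its median was -0.08 against 0.09. That median was -0.998 without aged replicate 1 and 0.562 without aged replicate 3. In these bulk samples fewer sebocytes and less RNA per sebocyte cannot be told apart. Detection above background reached the minimum of 3 arrays for all 10 genes, and 9 of them were detected on all 6 arrays.

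Scd1 and Scd3 encode stearoyl-CoA desaturases, which place a double bond in saturated fatty acids. Scd1 measured 5.72, 4.84 and 3.76 in aged replicates 1, 2 and 3, and 4.93, 4.25 and 4.11 in young replicates 1, 2 and 3. The aged arrays held both the highest and the lowest value, and the groups overlapped. The difference was 0.35 ± 0.51 (SE, limma adjusted p = 0.745). Scd3, by its brightest probe, measured 2.34, 0.22 and -0.46 in aged replicates 1, 2 and 3, and 2.20, 0.49 and 0.33 in young replicates 1, 2 and 3. Replicate 1 stood above the other samples in both groups. The difference was -0.31 ± 0.84 (SE, limma adjusted p = 0.873). The other Scd3 probes gave differences of -0.83 and 0.28, so the probes of this gene disagree in sign.

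Elovl3 encodes an elongase of very long chain fatty acids. It measured 3.96, 3.01 and 1.95 in aged replicates 1, 2 and 3, and 3.91, 3.07 and 2.79 in young replicates 1, 2 and 3. The highest samples of the groups were nearly level, and the lowest of the 6 was aged replicate 3. The difference was -0.28 ± 0.55 (SE, limma adjusted p = 0.816).

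Plin2 and Plin5 encode perilipins, proteins of the droplet surface, and Cidea encodes a protein that promotes droplet fusion and enlargement. Plin2 measured 5.19, 4.27 and 2.91 in aged replicates 1, 2 and 3, and 4.41, 3.48 and 3.24 in young replicates 1, 2 and 3. Aged replicates 1 and 2 lay above the young samples of the same number and aged replicate 3 below all young samples. The difference was 0.42 ± 0.61 (SE, limma adjusted p = 0.746). Plin5 measured 1.19, -2.18 and -4.00 in aged replicates 1, 2 and 3, and -0.87, -2.26 and -2.58 in young replicates 1, 2 and 3. It had the widest aged spread of the 10 genes, with an SD of 2.63 against 0.91 in young epidermis. The difference was 0.24 ± 1.30 (SE, limma adjusted p = 0.939). Cidea measured 6.32, 5.09 and 3.79 in aged replicates 1, 2 and 3, and 5.11, 4.52 and 4.24 in young replicates 1, 2 and 3. Its groups overlapped as those of Plin2 did. The difference was 0.44 ± 0.63 (SE, limma adjusted p = 0.739).

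Awat1 and Awat2 encode acyl-CoA wax alcohol acyltransferases, which make wax esters, and Dgat2l6 encodes a related acyltransferase of the DGAT2 family. All 3 genes lie on the X chromosome. Awat1 measured 3.61, 1.37 and -0.07 in aged replicates 1, 2 and 3, and 2.47, 1.41 and 0.69 in young replicates 1, 2 and 3. The groups overlapped, with aged replicate 1 highest and aged replicate 3 lowest. The difference was 0.12 ± 0.96 (SE, limma adjusted p = 0.960). Dgat2l6 measured 1.84, -0.69 and -1.26 in aged replicates 1, 2 and 3, and 1.51, 0.80 and -0.30 in young replicates 1, 2 and 3. Aged replicates 2 and 3 lay below all young samples and aged replicate 1 above them. The difference was -0.71 ± 0.88 (SE, limma adjusted p = 0.697).

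Awat2 was the 1 gene of the 10 whose groups did not overlap, lower in aged epidermis. Of all tested genes 27.0% did not overlap, 19.5% higher and 7.50% lower in aged epidermis. It measured -4.98, -6.20 and -6.60 in aged replicates 1, 2 and 3, and -3.69, -3.82 and -4.33 in young replicates 1, 2 and 3. Detection above background was recorded on 0 of 3 aged and 3 of 3 young arrays, so it was tested only through the group in which it was brighter. The measured means were -5.93 in aged and -3.95 in young epidermis, a difference of -1.98 ± 0.44 (SE, limma adjusted p = 0.139). The aged signals were not well above background, so only a bound can be given. Between group means Awat2 was at least 1.62-fold lower in aged epidermis, taking the dimmest spot well above background on each array as the floor. This bound carries no sampling error. With the dimmest probe mean as the floor the bound is 2.63-fold; the spot floor was chosen as the stricter after both values were seen. The bound holds for the deposited background subtraction, and with normexp background correction the fitted difference was -0.29. Without aged replicate 1 the fit called Awat2 (-2.45, limma adjusted p = 0.0106), again with aged signals not well above background. Over the alternatives that tested it, which leave out the filter on all 6 arrays, the adjusted p ran between 0.00256 and 0.696.

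Mc5r encodes the melanocortin 5 receptor, which regulates sebum output in mice. Its brighter probe, designed to a non-coding transcript record, measured 2.73, 0.88 and -0.34 in aged replicates 1, 2 and 3, and 2.26, 1.39 and 1.07 in young replicates 1, 2 and 3. The groups overlapped. The difference was -0.49 ± 0.78 (SE, limma adjusted p = 0.769). The other probe, designed to the coding transcript, measured -1.23, -2.58 and -3.46 in aged replicates 1, 2 and 3, and -1.88, -2.87 and -2.82 in young replicates 1, 2 and 3. Its difference was 0.10, of the opposite sign.

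**Figure D1:**
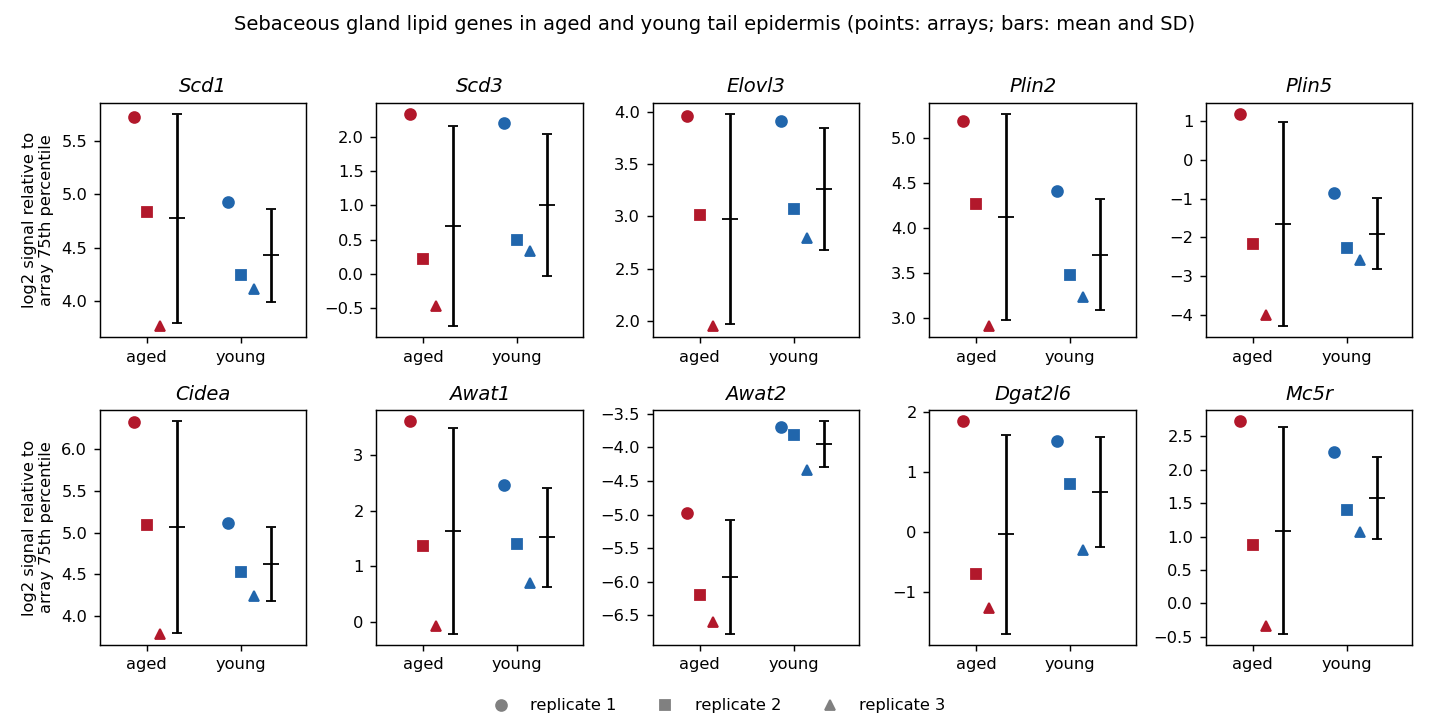
Log2 signal relative to the array's 75th percentile (vertical axes, which differ between panels) of each gene in aged and young samples, with points for arrays, shapes for replicate numbers and bars for mean and SD (n = 3 each). Replicate 1 is the highest point of both groups in all 10 panels. Awat2 is the 1 panel in which the groups do not overlap, and its aged points are not well above background.

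**Figure D2:**
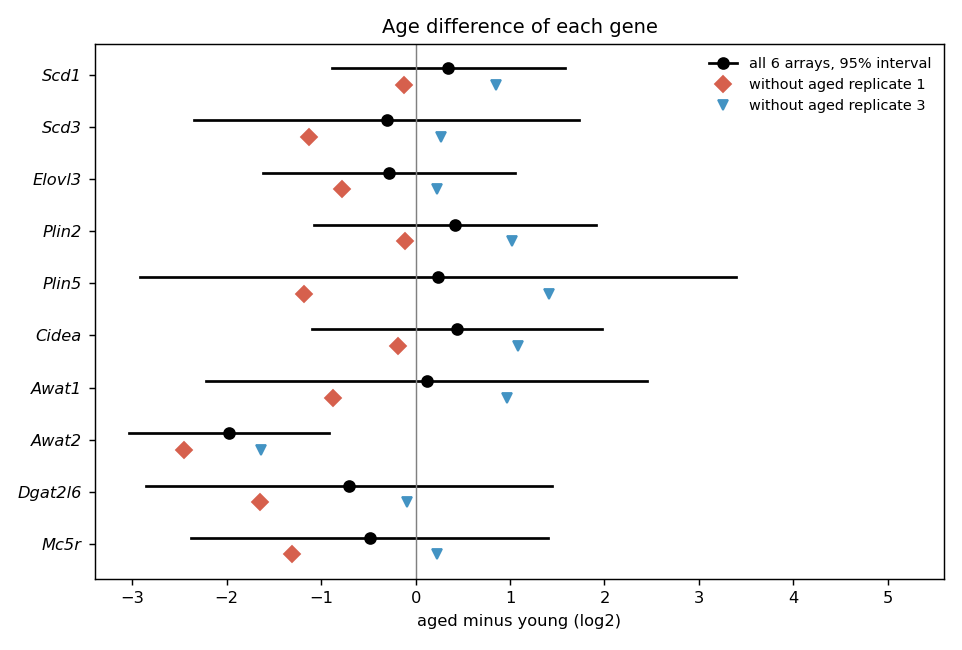
Difference, aged minus young on the log2 scale (horizontal axis), of each gene over all 6 arrays with its 95% interval, not adjusted for multiple tests, and the difference without aged replicate 1 or without aged replicate 3. Without aged replicate 1 all 10 differences are negative, and without aged replicate 3 there are 8 positive ones.

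Awat2 is left out of what follows, as its aged signals were not well above background. The 9 other genes shared an order across arrays, described here after the values were seen and with no test. Replicate 1 was the highest sample of both groups for 9 of 9 genes, against 22.2% of all tested genes. Aged replicate 3 was the lowest of the 6 arrays for 9 of 9, against 14.0%, and aged replicate 1 the highest for 9 of 9, against 25.0%. With Awat2 counted, aged replicate 1 was the highest for 9 of 10. Young replicate 3 was the lowest young sample for 9 of 9, against 32.2%. By its other probe, to the coding transcript, Mc5r was instead lowest in young replicate 2, by a small margin. The aged SD was above the young SD for 9 of 9 genes, against 67.7%. Over these 9 genes the median deviation from the young mean was 1.33, -0.25 and -1.47 in aged replicates 1, 2 and 3, and 0.70, -0.18 and -0.50 in young replicates 1, 2 and 3. The same 9 genes correlated over the 6 arrays with r between 0.74 and 0.996, median 0.937, in 36 pairs that share the same libraries. Parts of this order were seen in other lists. Replicate 1 was highest in both groups for 10 of 16 other desaturation and elongation genes and 5 of 7 other droplet genes, against 22.2%. It was so for 7 of 17 genes of fatty acid synthesis, uptake and activation and 5 of 15 of acyl transfer. Of lipolysis genes it was so for 3 of 7, of regulators for 2 of 14 and of melanocortin genes for 2 of 3. The same held for 8 of 12 hair shaft and inner root sheath markers and 1 of 8 keratinocyte markers. Among follicle stem cell and outer root sheath markers it held for 0 of 8. Aged replicate 3 was lowest for 11 of those 12 hair shaft markers, and aged replicate 1 highest for 0.

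The sign of most differences rested on single arrays. Without aged replicate 1 the difference was negative for 10 of 10 genes, between -0.12 for Plin2 and -2.45 for Awat2. Without aged replicate 3 it was positive for 8 of 10. Aged replicate 1 lay above young replicate 1 for these 9 genes, against 52.2% of all genes, while the mean of aged replicates 2 and 3 lay below that of young replicates 2 and 3 for 6 of the 9, against 33.5%. The exceptions were Scd1, Plin2 and Cidea, higher by 0.12, 0.23 and 0.06.

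Other measures moved with the samples numbered 1. The Y-linked Eif2s3y, Ddx3y and Kdm5d were well above background on these 2 arrays alone, with Ddx3y at 1.89 in aged replicate 1 and 2.17 in young replicate 1. The brighter of 2 probes of the Y-linked Uty was so on young replicate 3 too, at -1.74, and the other probe on the arrays numbered 1 alone. Xist, the X-inactivation transcript, measured -7.07, 0.72 and 0.99 in aged replicates 1, 2 and 3, and -2.87, 1.34 and 1.24 in young replicates 1, 2 and 3. Aged replicate 1 is also the 1 sample of 22 months, so among aged samples age in months, replicate number and these sex-linked transcripts cannot be told apart.

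The summed linear signal of the 10 genes was 215, 96.5 and 41.8 in aged replicates 1, 2 and 3, and 120, 70.3 and 58.6 in young replicates 1, 2 and 3. That of the 10 sebaceous lineage markers was 509, 281 and 153 in aged replicates 1, 2 and 3, and 356, 332 and 261 in young replicates 1, 2 and 3. Within each group both sums were highest on the array numbered 1 and lowest on that numbered 3. Cidea, Scd1 and Plin2 carry most of the first sum, and they are the exceptions named above. Krt79 carries most of the second sum, which without it was 114, 70.9 and 40.2 in aged replicates 1, 2 and 3, and 84.5, 62.3 and 55.6 in young replicates 1, 2 and 3. Of the 9 tested lineage markers 5 had replicate 1 highest in both groups, and Prdm1 was lowest there among aged samples, at 2.32, 2.77 and 2.96 in aged replicates 1, 2 and 3. Markers of hair shaft and inner root sheath, parts of the follicle the gland opens into, summed to 847, 204 and 60.9 in aged replicates 1, 2 and 3, and 1624, 1103 and 1482 in young replicates 1, 2 and 3. All aged sums of these markers lay below all young sums, and 9 of the 12 tested markers were lower at an unadjusted p under 0.05, against 17.7% of all genes in either direction, with 0 called by limma. Markers of follicle stem cells and outer root sheath summed to 41.4, 28.2 and 21.9 in aged replicates 1, 2 and 3, and 41.3, 47.8 and 38.4 in young replicates 1, 2 and 3, with overlap. Adipocyte markers, of which 5 of 11 were tested, summed to 4.09, 2.23 and 1.94 in aged replicates 1, 2 and 3, and 7.57, 6.09 and 7.78 in young replicates 1, 2 and 3. The lower aged sums rest on Fabp4, which is also a sebaceous lineage marker. Without it the sums were 1.92, 1.60 and 1.74 in aged replicates 1, 2 and 3, and 1.23, 1.45 and 1.43 in young replicates 1, 2 and 3, higher in all aged samples. Retn (0.74), Cidec (1.36) and Adrb3 (0.29) had positive differences and Lipe (-0.14) a negative one, and limma called 0 of these. Retn and Cidec were each detected on 2 of 3 young arrays. Brown fat also expresses Cidea and Elovl3. Of its 6 other markers 2 had replicate 1 highest in both groups, 2 had it lowest in both, and 4 had aged replicate 1 highest among aged samples. Ucp1, the defining brown fat gene, measured -3.83, -1.13 and -0.03 in aged replicates 1, 2 and 3, and -3.69, -0.73 and -1.43 in young replicates 1, 2 and 3. Cox8b, a muscle and brown fat subunit of cytochrome oxidase, measured -0.94, -3.73 and -4.08 in aged replicates 1, 2 and 3, and -2.09, -2.81 and -2.96 in young replicates 1, 2 and 3. These markers thus had no common order. Of 5 tested markers of fibroblasts and dermis limma called 2 lower in aged epidermis, Col1a1 and Col3a1, against 0.0354% of all genes. Both calls were lost with the replicate block, and Col3a1, detected on 0 aged and 3 young arrays, was tested only through the young group. Col1a1 was detected on 2 of 3 aged arrays. Col1a2, detected on 3 of 3 aged and 3 of 3 young arrays, was lower but not called (-2.08, limma adjusted p = 0.111). Its groups did not overlap, against 7.50% of all genes lower without overlap. Dcn (0.21) and Sparc (0.48) had positive differences. The part of other cell types in the values of the 10 genes was not tested.

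**Figure D3:**
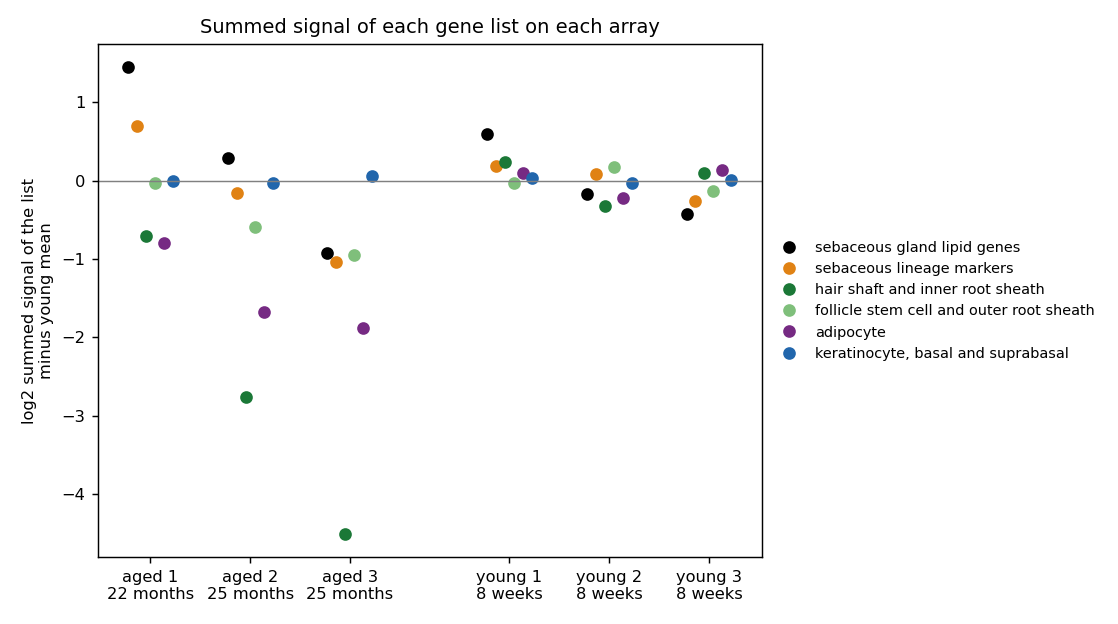
Summed linear signal of 6 gene lists on each array, as log2 minus the young mean (vertical axis), for the aged and young samples (horizontal axis). The sebaceous gland lipid genes and the sebaceous lineage markers spread widely among aged samples, the hair shaft markers lie below all young samples, and the keratinocyte markers stay near 0. Cidea, Scd1 and Plin2 carry most of the sum of the lipid genes, and Krt79 most of that of the lineage markers.

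Differences between genes on the same array remove only a shift of equal log2 size in each. Plin5 minus Scd1 kept the order of the replicates in both groups. It was -4.53, -7.01 and -7.76 in aged replicates 1, 2 and 3, and -5.79, -6.51 and -6.69 in young ones. Elovl3 minus Scd1 was -1.76, -1.82 and -1.81 in aged replicates 1, 2 and 3, and -1.02, -1.17 and -1.31 in young replicates 1, 2 and 3. The aged values lay close together below all young values, a change of -0.63 in the log2 ratio, and 5.02% of all genes were lower relative to Scd1 without overlap. Relative to Plin2 and to Cidea, Elovl3 was lower in aged epidermis by 0.70 and 0.73, again without overlap, against 4.04% and 4.63% of all genes. Scd1, Plin2 and Cidea correlated with each other at r between 0.984 and 0.996, so these comparisons are not separate observations. Of the 36 pairs of the 9 genes 7 did not overlap, which is no larger a share than the 23.9% over all pairs of genes detected on 6 arrays. The others were Mc5r against Plin2 (-0.90), Cidea (-0.93) and Awat1 (-0.60), and Dgat2l6 against Awat1 (-0.82), where 2.14% of all genes were lower relative to Awat1 without overlap. With the other Mc5r probe the change was -0.31 against Plin2, without overlap, -0.34 against Cidea and -0.01 against Awat1, both with overlap. An exact permutation test of 3 arrays against 3 has a smallest possible p of 0.1, so these pairs are described without one.

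For each of the 9 genes the non-member genes most like it over the 6 arrays were taken from 13067 candidates, as a description over arrays that share libraries. Pabpc1l was most like Scd1 (r = 0.997) and Plin2 (r = 0.991), and Mid1ip1 most like Cidea (r = 0.997). Mpp6 was most like Scd3 (r = 0.996), Cdc42se2 most like Plin5 (r = 0.995) and Sfrp1 most like Elovl3 (r = 0.990). Endod1 was most like Awat1 (r = 0.996), 9130008F23Rik most like Dgat2l6 (r = 0.997) and Aadacl4 most like Mc5r (r = 0.998).

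Around the 10 genes, 8 lists of the same pathways were described, and limma called 0 genes in each. Their median differences lay between -0.15 and 0.67, against 0.09 over all tested genes. Their counts stand against 63.6% of all tested genes with a positive difference and 17.7% at an unadjusted p under 0.05. Of 16 tested genes of desaturation and elongation, 8 had a positive and 8 a negative difference, with 2 at an unadjusted p under 0.05, both lower. They were Scd4, a desaturase like Scd1 (-0.76 ± 0.16, SE, limma adjusted p = 0.134), and Fads2, the delta-6 desaturase (-2.54), which was detected on 1 of 3 aged arrays. Acyl transfer and fatty alcohol synthesis had 15 tested genes, 8 positive and 7 negative, with 1 higher at that p: Dgat2, which makes triglycerides (0.29 ± 0.11, SE, limma adjusted p = 0.260). Of 7 tested lipid droplet genes 4 were positive, and 2 were higher at that p: Bscl2, which encodes seipin (0.38), and the droplet fusion gene Cidec (1.36). Cidec was detected on 2 of 3 young arrays.

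Of 7 tested lipolysis genes 4 were positive, and 1 was higher at an unadjusted p under 0.05, the triglyceride lipase gene Pnpla2 (0.33). Fatty acid synthesis, uptake and activation had 17 tested genes, 11 positive and 6 negative, with 3 higher and 1 lower at that p. The higher ones included the acyl-CoA synthetase gene Acsbg1 (0.38) and the malic enzyme gene Me1 (0.65), and the lower one was Fabp4. Fabp4, a fatty acid binding protein, measured 1.12, -0.67 and -2.37 in aged replicates 1, 2 and 3, and 2.67, 2.22 and 2.67 in young replicates 1, 2 and 3. Its groups did not overlap, at a difference of -3.15 ± 0.83 (SE, limma adjusted p = 0.172), and it stands in the adipocyte and sebaceous lineage lists too. Of 14 tested regulators 11 were positive, with 1 higher and 1 lower at that p, Ppara (0.53) and Ppargc1a (-1.38). Ppargc1a was detected on 0 of 3 aged and 3 of 3 young arrays, so it was tested only through the young group. Pparg, the nuclear receptor of sebocyte maturation, differed by 0.08. Of 3 tested melanocortin genes 2 were positive, both at that p, Agrp (0.67) and Mc3r (2.14). Mc3r was detected on 2 of 3 young arrays, and its undetected value, -6.45 in young replicate 2, enters that difference. Mc1r was the negative one (-1.36), detected on 1 of 3 aged arrays. The 9 tested sebaceous lineage markers had 3 positive and 6 negative differences, with 1 higher and 1 lower at that p. The higher one was Mgst1, a microsomal glutathione transferase (0.77), and the lower one Fabp4.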

How the data were processed

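All 6 arrays were on 1 slide in 1 scan, and Feature Extraction 11.5.1.1 quantified them, per the file headers. The 3 aged arrays and young replicate 3 lay in slide row 2, and young replicates 1 and 2 in slide row 1. Slide row and age thus largely coincide and can hardly be told apart. The deposited spot values are a linear intensity, background-subtracted within each array, per the file headers. The deposited flags for detection and spot outliers are other values used as filters. The authors' deposited table lists 33870 probes on a log2 scale, which matched log2 intensity minus the 75th percentile, centred per probe (column medians aged -0.01, 0.02 and 0.07, young -0.01, -0.02 and -0.02).

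The log2 of this signal was scaled by subtracting each array's 75th percentile. Control spots and 116 to 170 outlier spots per array were left out. RefSeq accessions named 28325 probes by the GRCm38.p6 table; 27356 stayed unnamed. A probe was tested if detected above background on 3 or more arrays, and the brightest stood for a gene, giving 14141 genes and 10939 unnamed probes. Aged and young were compared with limma 3.58.1 in R 4.3.3 (lmFit, eBayes, two-sided, no covariate, Benjamini-Hochberg over 25080 features), tested on simulated data. The files use the mm9 design; promoter coordinates are RefSeq's. The bound for Awat2 sets the young mean against the higher of the aged signal and the dimmest spot well above background; that floor was chosen over the dimmest probe mean after both bounds were seen.

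Replicate numbers come from the titles. Deviations of same-numbered samples correlated across features at r = 0.413, 0.258 and 0.102, which was taken as pairing. Yet aged replicate 3 with young replicate 2 gave 0.286, more than either gave with its own number, and genes are not independent. The SE of each gene and the adjusted p beside it come from the fit without the replicate block. With that block the SE of the 10 genes ran between 0.22 for Scd3 and 0.71 for Plin5. Their limma adjusted p then ran between 0.156 for Awat2 and 0.890 for Awat1. The 10 genes and all lists were chosen with earlier results of these data known. Genes named were the 10, up to 3 per list by unadjusted p, and the most alike genes per member. Pparg, Prdm1, Krt79, Adrb3, Lipe, Ucp1, Cox8b, Dcn, Sparc and the sex-linked genes were named after their values were seen. The sums without Fabp4 or Krt79 were chosen after seeing the data. Alternatives covered scaling, background, filters, probe choice, the deposited table, the replicate block, array weights and left-out samples.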

Additional observations from a re-analysis of the deposited data

How the results depend on the processing

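Genes called numbered 11, and 7 with quantile normalization, 15 with normexp (3 of them among the 11), 21 with scaling to the median, 3 with the filter on all 6 arrays, 1 with no filter, 0 with the replicate block, 20 with replicate 1 as a term, 4885 with array weights (a fit that stopped before convergence), 215 without both samples numbered 1, 0 with slide row as a block (added after seeing the data), and 0 to 810 leaving out 1 sample. Of the 10 genes 1, Awat2, was called with array weights and 1 without both samples numbered 1, and 0 to 1 leaving out 1 sample; the replicate block called 0 of them, and it removed all 11 calls over all genes, Col1a1 and Col3a1 included. List calls with array weights were 4 for desaturation, 3 for acyl transfer, 3 for droplets, 2 for lipolysis, 7 for fatty acid synthesis, 7 for regulators, 2 for melanocortin and 4 for lineage genes. Without both samples numbered 1 they were 1 for desaturation and 1 for melanocortin genes. Leaving out 1 sample gave 0 to 2 for desaturation, fatty acid synthesis and lineage genes, and 0 to 1 for regulators and melanocortin genes.

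Without both samples numbered 1, Plin5 (-0.67) and Awat1 (-0.40) turned negative. With slide row as a block Scd3 (0.37), Elovl3 (0.18), Dgat2l6 (0.27) and Mc5r (0.016) turned positive. That fit sets the aged arrays against young replicate 3 alone, the only young array in their slide row. Leaving out 1 sample gave -0.13 to 0.85 for Scd1, -1.13 to 0.29 for Scd3, -0.12 to 1.02 for Plin2, -1.18 to 1.41 for Plin5, -0.18 to 1.08 for Cidea, -0.78 to 0.23 for Elovl3, -0.87 to 0.97 for Awat1, -2.45 to -1.64 for Awat2, -1.64 to -0.09 for Dgat2l6 and -1.31 to 0.23 for Mc5r. The cause was not tested. Awat2 differed by -0.29 with normexp on the median spot signal, and its bound was 1.62-fold with the spot floor and 2.63-fold with the probe floor. Dim aged Awat2 signals limit that gene.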
